A study of Mus musculus with 6 samples.

Results

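The 10 genes described here encode subunits of the esBAF complex, the form of the BAF (mouse SWI/SNF) chromatin remodeller found in embryonic stem cells: Smarca4, Smarcb1, Smarcc1, Smarcd1, Smarce1, Arid1a, Actl6a, Dpf2, Brd9 and Ss18. They were chosen by name, not by any measured value, from 20665 autosomal protein-coding genes that could be placed on mm10. Around each gene, the subcompartment labels of the 50 kb bins overlapping the gene or the 250 kb on either side (called its window) and the chromatin loops with an anchor within 50 kb of the gene were read. The windows hold 11 to 13 bins each and 120 bins in all, on 9 chromosomes.

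The measurements come from Hi-C, which ligates and sequences DNA ends that are neighbours in the folded genome, in E14 cells (E14TG2a), a male mouse embryonic stem cell line grown in serum with LIF and labelled wild type in every sample. Cells were transfected with esiRNA (enzymatically made mixtures of short interfering RNAs) against Smarca4 (Brg1KD), against Ino80, the gene of the ATPase of the INO80 remodeller (Ino80KD), or against EGFP (Control), and were harvested after 48 h. Each group has 2 libraries, and the replicate number is also the batch, so each batch holds 1 library of every group. Nothing in the labels says that replicates came from separate cultures, so p-values measure only the spread between these libraries, which may be technical. The knockdowns are transient and carried by 1 cell line. How far Smarca4 or Ino80 transcripts fell is not part of these data.

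BAF complexes use the ATPase Smarca4 (Brg1) to slide or evict nucleosomes, mostly at enhancers and promoters. In embryonic stem cells the complex carries Smarca4 rather than Smarca2 and Smarcc1 rather than Smarcc2, and it is needed for self-renewal. Smarcc1, Smarcd1, Smarcb1 and Smarce1 build the core around which the other subunits assemble, Actl6a and Ss18 belong to the ATPase module, Arid1a and Dpf2 mark the canonical complex, and Brd9 marks the noncanonical complex.

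Per library, the authors deposited segments labelled with 1 of 8 subcompartments, from B.2.2 (rank 1, the most B-like, inactive chromatin) to A.1.1 (rank 8, the most A-like, active chromatin), here given as ranks in classes. The libraries hold 5044 to 5234 segments, the read depth is unknown, and the autosomes alone are covered. In every library, all 7 of 7 embryonic stem cell marker genes had an A label, and so had 3 of 3 mesendoderm, 3 of 3 trophectoderm, 1 of 3 primitive endoderm and 1 of 3 fibroblast markers, and Hi-C gives no transcript levels to compare. Across all 47717 bins labelled in every library, Brg1KD replicates had the same label in 68.3% of bins, Ino80KD replicates in 69.5% and Control replicates in 68.9%. The loops come as 1 list per group, taken as pooled from both libraries, with anchors of 10 kb and no score, so they have no replicates and no test, and a loop missing from a list may still be a contact below the caller's threshold, which the sources used here do not give.

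All 10 esBAF genes lay in A at their midpoint in all 6 libraries, against 68.3% of the 19711 protein-coding genes with a full window. Smarca4, Dpf2, Smarcb1 and Smarcd1 were in A.1.1 in every library, which is 4 of 10 members, against 31.0% of all genes. This placement was not particular to the members. Of 18 other BAF family genes with a full window, 17 lay in A and 10 in A.1.1 in every library. Ss18 was in A.1.2 in every library, and the other 5 changed label between libraries. Over the windows, 58 of the 120 bins were A.1.1 in all 6 libraries, 6 bins around Ss18 and Smarce1 were in B in all, and 6 bins around Smarce1 and Actl6a were in A in some libraries and in B in others. The members' windows were also gene-rich: the median was 25.8 protein-coding genes per Mb, against 18.2 over all genes. Dpf2 stood at the top with 58.3 genes per Mb and Ss18 at the bottom with 5.0.

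**Figure D1:**
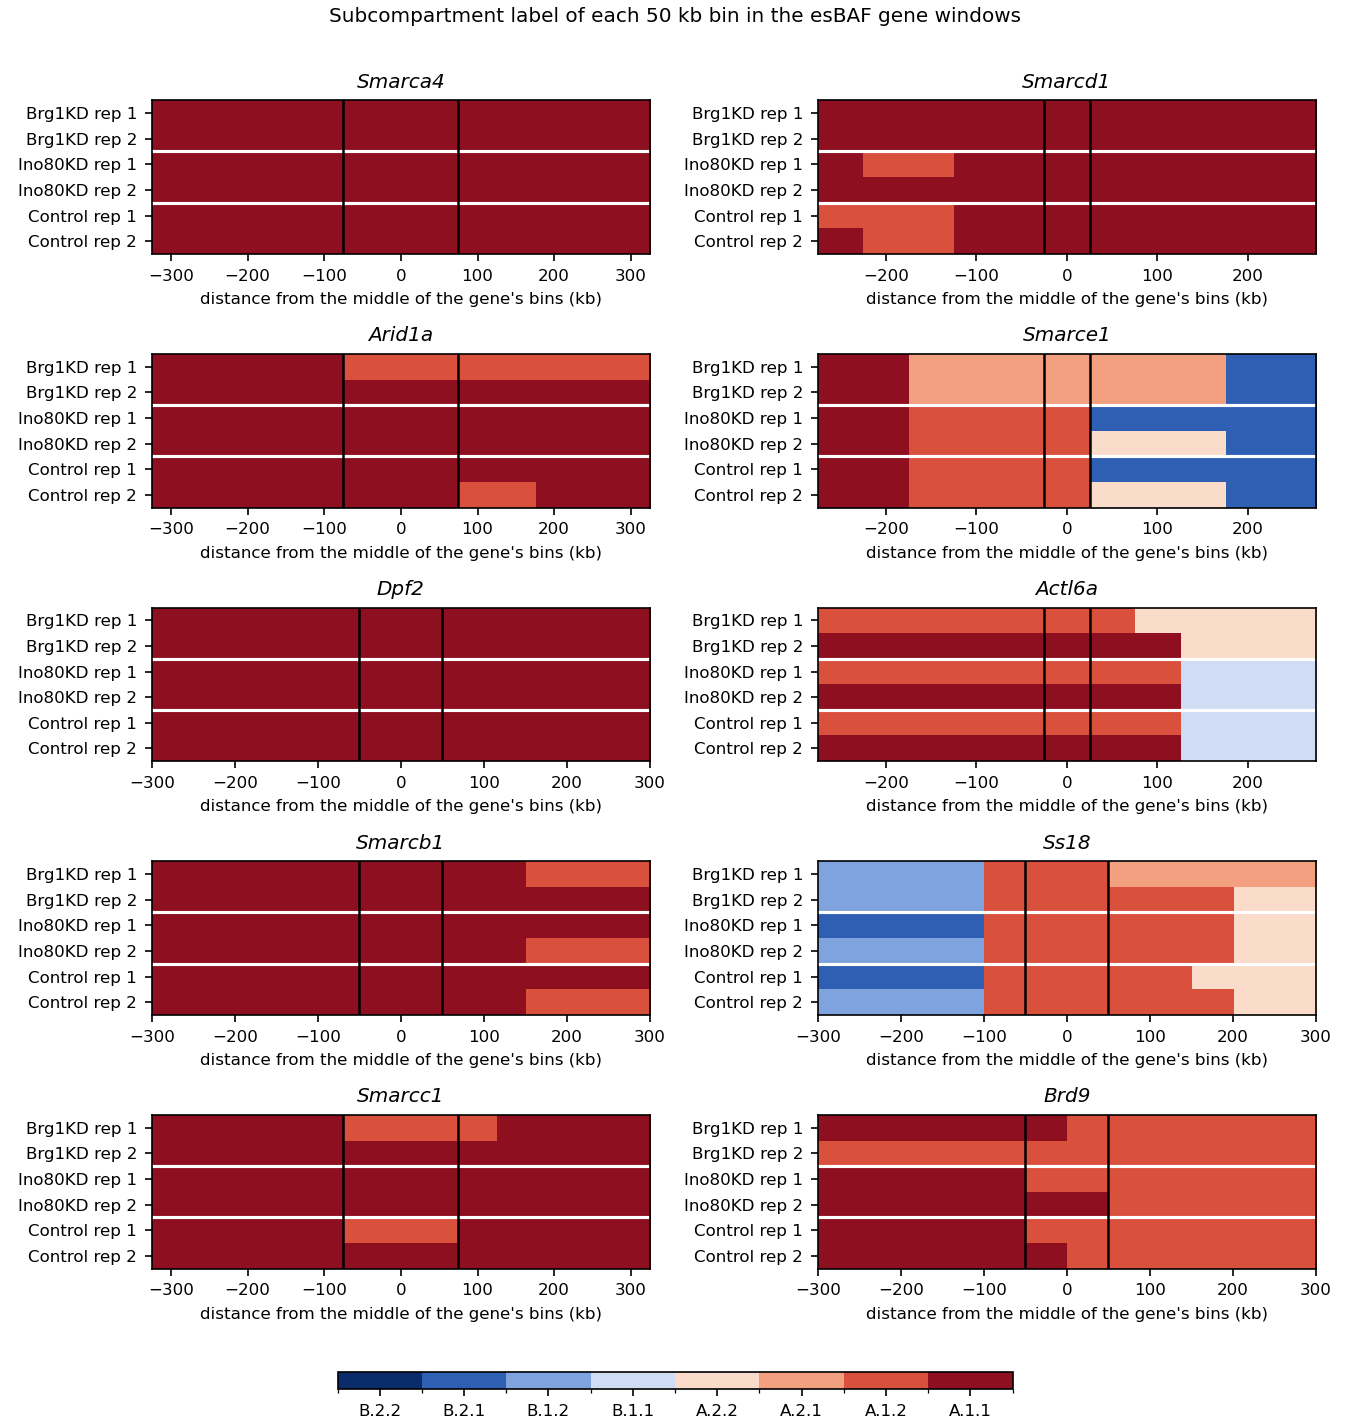
Subcompartment label of each 50 kb bin (colour scale at the bottom, from B.2.2 in dark blue to A.1.1 in dark red) along the window of each esBAF gene, 1 row per library, with distance from the middle of the gene's bins in kb on the x axis and the gene's own bins between the black lines. Smarca4 and Dpf2 are A.1.1 throughout, and the windows of Smarce1, Actl6a and Ss18 hold the bins in B.

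No member window passed the test in either knockdown. A window's mean rank was compared between groups with limma over all 19711 genes (Benjamini-Hochberg adjusted p under 0.05). In Brg1KD against Control, 0 of 10 member windows were called, against 2.43% of all windows. An unadjusted p under 0.05 was found for 1 of 10 members, Smarcd1, and for 2010 of all 19711 windows. In Ino80KD against Control, 0 of 10 were called, against 1.4% of all windows, and in Brg1KD against Ino80KD 0 of 10, against 1.62%. No member had an unadjusted p under 0.05 in either, against 1310 and 1745 of all windows. With batch as a block the members' counts were again 0, and the counts over all windows were 233, 80 and 0, where the fit without the block gave 479, 276 and 320. The median shift of the 10 windows was 0 classes in Brg1KD against Control and 0.02 classes in Ino80KD against Control, with 0 over all genes in both. In Brg1KD both libraries lay above both Control libraries for 1 member, Smarcd1, against 10.1% of windows, and below for 0, against 13.3%. In Ino80KD this was so for 0 members above, against 5.68% of windows, and 0 below, against 11%, and in Brg1KD against Ino80KD for 0 above, against 12.3%, and 0 below, against 9.92%. These comparisons share the Control libraries or the Brg1KD libraries. Rank 8 is the highest, so no window could lie above a group with a library at 8. In Control this held for Smarca4, Dpf2, Arid1a, Smarcb1 and Smarcc1, and in Ino80KD for these and Smarcd1. The median window mean in the Control libraries was 7.75 and 7.78 for members, against 6.33 and 6.36 over all genes. The shares over all genes thus come from windows less near the top. Since 2441 windows had no residual spread, limma's p-values are poorly calibrated here, and an exact permutation of 2 libraries against 2 cannot go below p = 0.333.

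**Figure D2:**
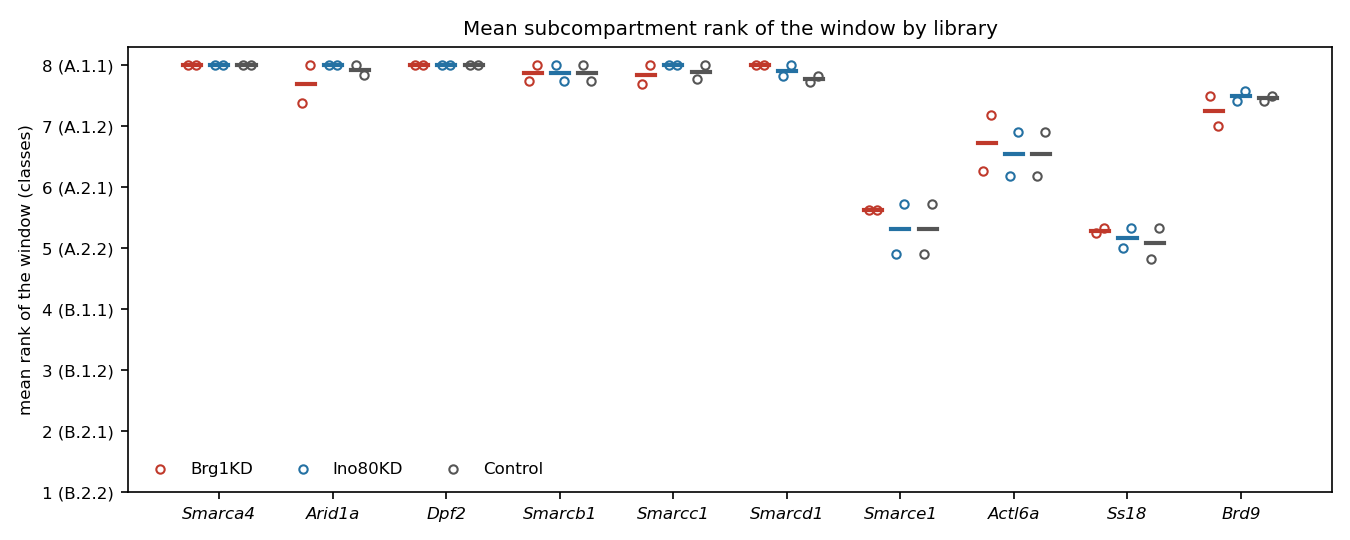
Mean subcompartment rank of each esBAF gene's window (y axis, in classes, 8 being A.1.1), with 1 circle per library and a bar at the group mean of Brg1KD, Ino80KD and Control. The group means of Smarce1, Actl6a and Ss18 lie below those of the other 7 genes, and the groups overlap for every gene except Smarcd1, where both Brg1KD libraries are at 8 and both Control libraries are below it.

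Smarca4 (chromosome 9, 21616106 to 21704230), the ATPase and the target of the Brg1KD esiRNA, had rank 8 in all 13 bins of its window in both Brg1KD, both Ino80KD and both Control libraries. Its loops differed between the lists. The Brg1KD list and the Ino80KD list each held 2 loops from the anchor 21610001 to 21620000, which contains the start of transcription at 21616169, and the Control list held none within 50 kb of the gene. One loop reached 250 kb to 21860001 to 21870000, an anchor with no protein-coding gene, and the other 330 kb to 21940001 to 21950000 in Plppr2, a gene of the phospholipid phosphatase-related family. The anchors were identical in both knockdown lists. The closest Control loop had an anchor 360 kb away from its counterpart. Among all loops near members, these are the ones with an anchor that holds the member's own annotated start of transcription. This could be read for the 8 members whose start could be placed, and starts of other genes were not checked.

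The sequence upstream of Smarca4 is shown because that anchor holds it, beside those of Arid1a and Smarcc1, which also had more loops in the knockdown lists than in the Control list. The stretches lie outside annotated genes at chr9:21615919-21616105 (plus strand), chr4:133756770-133757019 (minus strand) and chr9:110131774-110132023 (plus strand), and are RefSeq sequence of GRCm38.p6, read 5′ to 3′. Capitals mark the GC box GGGCGG, the ETS motif CCGGAAG and the NRF1 motif (GCGC, any base, then TGCGC), searched on both strands, and none of the marked runs overlap.
Smarca4: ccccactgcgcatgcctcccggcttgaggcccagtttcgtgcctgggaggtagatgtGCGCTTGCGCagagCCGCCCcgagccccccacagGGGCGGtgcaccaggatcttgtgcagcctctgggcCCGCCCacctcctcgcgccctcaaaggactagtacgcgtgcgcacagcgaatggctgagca
Arid1a: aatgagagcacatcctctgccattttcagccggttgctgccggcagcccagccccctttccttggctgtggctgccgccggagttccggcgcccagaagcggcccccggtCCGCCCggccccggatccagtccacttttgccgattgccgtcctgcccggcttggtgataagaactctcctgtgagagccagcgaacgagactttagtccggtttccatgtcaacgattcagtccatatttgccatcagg
Smarcc1: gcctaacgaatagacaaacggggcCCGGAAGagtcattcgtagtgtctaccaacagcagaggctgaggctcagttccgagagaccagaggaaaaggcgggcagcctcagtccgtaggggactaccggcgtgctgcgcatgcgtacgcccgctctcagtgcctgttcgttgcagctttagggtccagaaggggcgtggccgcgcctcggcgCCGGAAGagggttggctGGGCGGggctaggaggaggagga
The Smarca4 stretch holds 3 GC boxes and 1 NRF1 motif, the Arid1a stretch 1 GC box, and the Smarcc1 stretch 2 ETS motifs and 1 GC box.

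Over the 300-base RefSeq promoters, which were matched for 8 members (not for Smarce1 and Ss18), all 8 had a CpG observed-over-expected ratio above 0.6, against 49.8% of 16457 promoters. Their median ratio was 0.948, against 0.597 over all promoters, and their median GC content was 64.8%, against 56.7%. The GC box was in 7 of 8, all except Dpf2, against 47.3% of all promoters. The NRF1 motif was in 2 of 8, Smarca4 and Dpf2, against 6.88%, and the ETS motif in 2 of 8, Smarcc1 and Brd9, against 12.3%. These matches describe letters in the window and not binding.

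Smarcc1 (chromosome 9, 110132024 to 110240178), a scaffold subunit on which the core assembles, lay in A.1.1 except for a stretch over the gene itself. Its window mean was 7.69 and 8.00 classes in Brg1KD, 8.00 and 8.00 in Ino80KD, and 7.77 and 8.00 in Control (replicates 1 and 2). In replicate 1 of Brg1KD 4 bins were A.1.2, in replicate 1 of Control 3 bins, and in the other 4 libraries none, so the groups overlap. The Brg1KD list held 1 loop near Smarcc1, from 109880001 to 109890000 to 110090001 to 110100000, spanning 210 kb, and the Ino80KD list held 1 of 190 kb with each anchor shifted by 1 bin of 10 kb. Both have their far anchor in Cdc25a, which encodes a phosphatase that drives the cell cycle. The Control list held none.

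Smarcd1 (chromosome 15, 99702287 to 99713995), a core subunit that contacts transcription factors, had window means of 8.00 and 8.00 classes in Brg1KD, 7.82 and 8.00 in Ino80KD, and 7.73 and 7.82 in Control. Both Brg1KD libraries lay above both Control libraries, and Ino80KD overlapped Control. The shift in Brg1KD against Control was 0.23 classes (SE 0.0774, 0.27 in batch 1 and 0.18 in batch 2), with a limma p of 0.0496 and an adjusted p of 0.485, so it did not pass. The bins behind it, from 99500001 to 99600000, were rank 8 in both Brg1KD libraries and rank 7 in both Control libraries, and hold Faim2, an inhibitor of apoptosis, and the water channel genes Aqp2 and Aqp5. The test called neither (limma adjusted p = 0.733).

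The loop that the lists shared near Smarcd1 had its far anchor in the same region. All 3 lists held an 80 kb loop from 99590001 to 99600000, over Aqp5 and Aqp6, to 99670001 to 99680000. The Brg1KD list added a 180 kb loop from that same near anchor to 99490001 to 99500000 in Faim2. In the bin holding that far anchor the rank was 8 in both Brg1KD and both Ino80KD libraries, and 7 and 8 in Control. The groups thus overlap in that bin. The Ino80KD list added one of 180 kb on the other side of the gene, from 99720001 to 99730000 to an anchor with no protein-coding gene.

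Smarcb1 (chromosome 10, 75896769 to 75921614), a core subunit that contacts the nucleosome's acidic patch and a tumour suppressor in human, had window means of 7.75 and 8.00 classes in Brg1KD, 8.00 and 7.75 in Ino80KD, and 8.00 and 7.75 in Control. The difference lay in 3 bins from 76050001 to 76200000 that were A.1.2 in 1 library of each group. Each list held 3 loops near Smarcb1. A loop of 360 kb or 370 kb to the gamma-glutamyltransferase genes Ggt5 or Ggt1 and Ggt5, and one of 80 kb or 90 kb to Cabin1, a calcineurin-binding protein gene, were in all 3 lists within 10 kb. The Brg1KD list alone had a 260 kb loop to Ggt1 and Ggt5, the Ino80KD list alone a 200 kb loop to Cabin1, and the Control list alone a 240 kb loop to Prmt2, an arginine methyltransferase gene.

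Smarce1 (chromosome 11, 99209047 to 99231017), the HMG-box subunit of the core, lay beside an A/B border, and its own bin had another label in Brg1KD. Its midpoint was A.2.1 in both Brg1KD libraries, A.1.2 in both Ino80KD libraries and A.1.2 in both Control libraries. The 4 bins from 99050001 to 99250000, which hold Tns4, the chemokine receptor gene Ccr7, Smarce1 and Krt222, had rank 6 in both Brg1KD libraries, rank 7 in both Ino80KD libraries and rank 7 in both Control libraries. The 4 bins fell by 1.0 class in Brg1KD against Control (limma, n = 2 each, adjusted p = 8.00e-08), a value that rests on the absence of any spread within groups, and with 1 variance common to all bins the adjusted p was 0.236. Against Ino80KD the 4 bins were lower by the same 1.0 class (limma adjusted p = 9.78e-08, and 0.269 with the common variance).

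The next 3 bins, from 99250001 to 99400000, lay the other way. They hold part of the type I keratin cluster, beginning with Krt24, Krt25, Krt26 and Krt27. Their rank was 6 in both Brg1KD libraries, 2 and 5 in Ino80KD, and 2 and 5 in Control. Both Brg1KD libraries lay above both Control libraries by a mean of 2.5 classes, with no call by limma (adjusted p = 0.808) and a call with the common variance (adjusted p = 3.11e-05). In both Brg1KD libraries the label A.2.1 thus ran unbroken over 7 bins (350 kb), from Tns4 past Smarce1 into the keratin genes, where replicate 1 of Ino80KD and of Control had a step from A.1.2 to B.2.1 at the edge of the bin holding Smarce1, and replicate 2 of both a step from A.1.2 to A.2.2. The last 2 bins of the window were B.2.1 in all 6 libraries.

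With differences of opposite sign within the Smarce1 window, its mean overlapped between groups, with 5.64 and 5.64 classes in Brg1KD, 4.91 and 5.73 in Ino80KD, and 4.91 and 5.73 in Control. The shift in Brg1KD against Control was 0.32 classes (SE 0.44), 0.73 in batch 1 and -0.09 in batch 2. Taking the bin that holds the gene body alone turned the direction, to -1.0 class (limma adjusted p = 8.14e-09, again with no spread within groups). Smarce1 is the 1 member with no loop within 50 kb in any of the 3 lists.

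Actl6a (chromosome 3, 32708546 to 32726973), the actin-related protein of the ATPase module, was split by batch rather than by knockdown at its own position, with A.1.2 in replicate 1 and A.1.1 in replicate 2 of Brg1KD, Ino80KD and Control. Its window means were 6.27 and 7.18 classes in Brg1KD, 6.18 and 6.91 in Ino80KD, and 6.18 and 6.91 in Control. At the far end of the window the groups did separate. The 3 bins from 32850001 to 33000000, which hold the end of Usp13, a deubiquitinase gene, had rank 5 (A.2.2) in both Brg1KD libraries, rank 4 (B.1.1) in both Ino80KD libraries and rank 4 in both Control libraries. They rose by 1.0 class in Brg1KD against Control (limma, n = 2 each, adjusted p = 8.00e-08, 0.236 with the common variance). The limma value again rests on the absence of any spread within groups, which holds for 18941 of all 47717 bins. The 3 bins were in A in Brg1KD and in B in Control. Measured as the share of bins in A, the Actl6a window was higher by 27.3 percentage points in Brg1KD than in Control in both batches. The rise did not reach the bin of the gene, and in replicate 1 of Brg1KD a bin nearer to it had rank 5 where the other libraries of batch 1 had rank 7.

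Actl6a also had the longest loops of the 10 genes. A loop from 32720001 to 32730000, over the end of the gene, to Ttc14 spanned 1080 kb in the Brg1KD list, 1090 kb in the Ino80KD list and 1080 kb in the Control list. A second loop from the same anchor to Fxr1, which encodes an RNA-binding protein, spanned 1320 kb in the Brg1KD list and 1330 kb in the Control list and was not in the Ino80KD list. On the other side, both knockdown lists held a loop of 70 kb or 80 kb to Gnb4, a G protein subunit gene, and the Control list one of 150 kb to Mfn1, a gene of mitochondrial fusion.

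**Figure D3:**
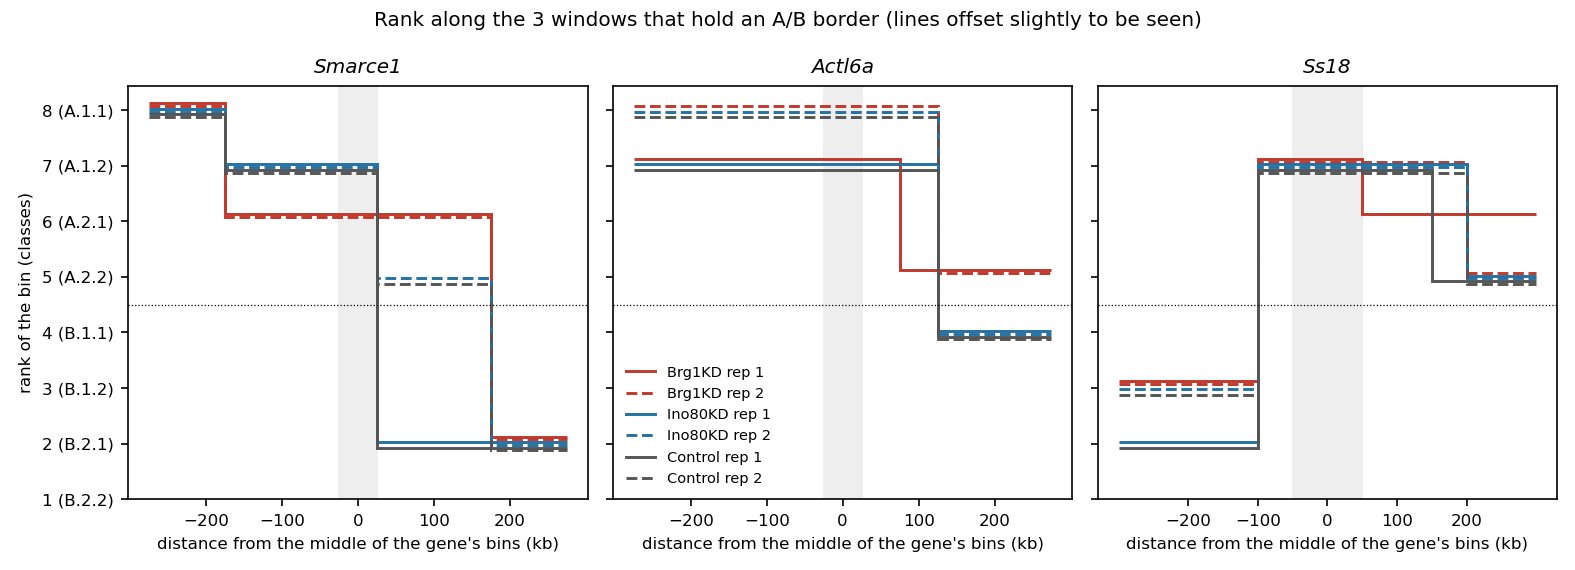
Rank of each 50 kb bin (y axis, in classes) against the distance from the middle of the gene's bins (x axis, in kb) for Smarce1, Actl6a and Ss18, with 1 line per library, the gene's bins in grey and the A/B border as a dotted line. Both Brg1KD lines run at rank 6 across Smarce1 and up to the B.2.1 bins, and both lie at rank 5 at the end of the Actl6a window, where the Ino80KD and Control lines are at rank 4.

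Ss18 (chromosome 18, 14625629 to 14684419), an ATPase-module subunit best known from its fusion to SSX genes in human synovial sarcoma, lay in the most B-like surroundings together with Smarce1. Its window means were 5.25 and 5.33 classes in Brg1KD, 5.00 and 5.33 in Ino80KD, and 4.83 and 5.33 in Control. The gene was A.1.2 in every library, and the first 4 bins of the window were in B in every library. Those 4 bins had rank 3 and 3 in Brg1KD, 2 and 3 in Ino80KD, and 2 and 3 in Control, so the groups overlap. Past the gene, 5 bins were A.2.1 in replicate 1 of Brg1KD, where the other 5 libraries had A.1.2 and A.2.2. The Brg1KD list held an 80 kb loop beside Ss18, from 14510001 to 14520000 to 14590001 to 14600000, and the Ino80KD list a 100 kb loop from the same far anchor to 14610001 to 14620000. The Control list held none within 50 kb.

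Arid1a (chromosome 4, 133679008 to 133756769), the ARID DNA-binding subunit of the canonical complex and often mutated in human cancers, had window means of 7.38 and 8.00 classes in Brg1KD, 8.00 and 8.00 in Ino80KD, and 8.00 and 7.85 in Control. The lowest value came from replicate 1 of Brg1KD alone, in which 8 bins from 133650001 to 134050000, the gene's own included, were A.1.2, and replicate 2 of Brg1KD was A.1.1 throughout. The shift in Brg1KD against Control was -0.62 classes in batch 1 and 0.15 in batch 2, so it had no common direction. All 3 lists held a 160 kb loop spanning the gene, from 133660001 to 133670000 to 133820001 to 133830000. The Brg1KD list held another of 90 kb and the Ino80KD list another of 80 kb from inside the gene to that same far anchor, where no protein-coding gene lies, and the Control list did not.

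Dpf2 (chromosome 19, 5896516 to 5912871), whose PHD fingers read histone H3, had rank 8 in all 12 bins of its window in every Brg1KD, Ino80KD and Control library. It also had the same single loop in all 3 lists, of 90 kb from 5780001 to 5790000 to 5870001 to 5880000, with identical anchors. Windows that are A.1.1 throughout in all 6 libraries made up 7.93% of all genes, and Smarca4 and Dpf2 are the 2 such members. Of 18 other BAF family genes, 3 had such a window.

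Brd9 (chromosome 13, 73937801 to 73960895), the bromodomain subunit of the noncanonical complex, which lacks Arid1a, Dpf2, Smarcb1 and Smarce1, sat on the edge between A.1.1 and A.1.2. Its window means were 7.50 and 7.0 classes in Brg1KD, 7.42 and 7.58 in Ino80KD, and 7.42 and 7.50 in Control. Replicate 2 of Brg1KD was A.1.2 throughout, and the other 5 libraries had 5 to 7 bins in A.1.1, so the lowest value rests on 1 library. Its loops were shared: a 360 kb loop from inside the gene to Pdcd6, which encodes a calcium-binding protein, and a 180 kb loop ending upstream of the gene were in the Brg1KD and Control lists with identical anchors, and within 10 kb in the Ino80KD list.

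Bin by bin, the members' calls lay in the windows of Smarce1 and Actl6a. In Brg1KD against Control, 3 of 120 bins were called higher, all around Actl6a, against 1.53% of all bins, and 4 were called lower, all around Smarce1, against 3.3% of all bins. Without a model, both Brg1KD libraries lay above both Control libraries in 8 bins, against 3.13% of all bins, and below both in 4 bins, against 7.19%. In Ino80KD against Control, 0 bins were called higher and 0 lower by limma, against 0.855% and 2.37% of all bins, and in 0 bins did both Ino80KD libraries lie beyond both Control libraries, against 1.76% above and 4.5% below. At an unadjusted p under 0.05 the Ino80KD count was also 0, against 1797 of all 47717 bins. With the common variance it was 0, against 326. In Brg1KD against Ino80KD the counts were 3 higher, against 1.82%, and 4 lower, against 2.14%, in the same bins of Actl6a and Smarce1. Both Brg1KD libraries lay above both Ino80KD libraries in 6 bins, against 4.24%, and below both in 4 bins, against 4.63%. With 1 common variance 3 bins were called in Brg1KD against Control, the keratin bins beside Smarce1, against 1622 of all 47717 bins. Of the 7 calls of the full fit, 0 were among them. The number of called bins changed when a library was left out. Such fits keep 1 library in a group, so their counts are not given. Neighbouring bins usually share a segment and are not independent. No bin could lie above a group with a library at rank 8, and 58 of the 120 bins were at rank 8 in all 6 libraries.

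Ino80KD and Control libraries of the same batch carried nearly the same labels in these windows. They matched in 115 of 120 bins in batch 1 and in 115 of 120 in batch 2 (95.8% each), against 68.4% and 71.7% of all bins. Replicates of a group matched in fewer member bins, 71.7% for Brg1KD, 81.7% for Ino80KD and 78.3% for Control. Brg1KD and Control libraries of the same batch matched in 70.0% and 80.8%, and those of different batches in 71.7% and 70.8%. Around the esBAF genes, labels differed in more bins between the batches than between Ino80KD and Control within a batch.

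Near the members, the Brg1KD list held 17 loops, the Ino80KD list 16 and the Control list 11, although the whole lists hold 6013, 5475 and 5903 loops. Per gene this is 1.7, 1.6 and 1.1 loops around the members, against 1.02, 0.941 and 1.01 around all protein-coding genes. A loop lay near 9 members in the Brg1KD list, 9 in the Ino80KD list and 6 in the Control list, against 56.3%, 53.7% and 56.2% of all protein-coding genes, so the share in the Control list was near that of all genes. More loops than in the Control list were found for 5 of 10 members in the Brg1KD list, against 14.1% of all genes, and fewer for 0 members, against 13.8%. In the Ino80KD list more were found for 5 of 10 members, against 10.4% of all genes, and fewer for 1, Actl6a, against 15.9%. The members with more loops were Smarca4, Arid1a, Smarcc1, Smarcd1 and Ss18 in both cases. Both counts are set against the same Control list, so a loop missing there counts in both. Of these members, Smarca4, Smarcc1 and Ss18 had a loop in both knockdown lists and none in the Control list, which is 3 of 10. The same was so for 444 of all 20665 genes and for 0 of the 19 other BAF family genes. Genes with a loop in the Brg1KD list and none in the Control list made up 5.3% of all genes, and the share for the Ino80KD list was 4.15%.

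Matched within 10 kb at both anchors, the loops near members formed 22 distinct loops, of which 8 were in all 3 lists and 11 were not in the Control list. Of the 11 Control loops near members, 9 were found again in the Brg1KD list and 8 in the Ino80KD list, so that 2 and 3 were not, beside 23% and 24.9% of all Control loops. Seen from the knockdowns, 9 of 17 Brg1KD loops (52.9%) and 8 of 16 Ino80KD loops (50%) had a match in the Control list, against 75.6% and 81.0% of all loops in those lists. With identical anchors required, the shares were 41.2% near members, against 44.9% of all Brg1KD loops, and 25% near members, against 50.0% of all Ino80KD loops. The loops spanned 70 to 1330 kb. Over the 44 entries of the 3 lists, where a shared loop counts once per list, the median was 180 kb, against 250 kb in each whole list.

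**Figure D4:**
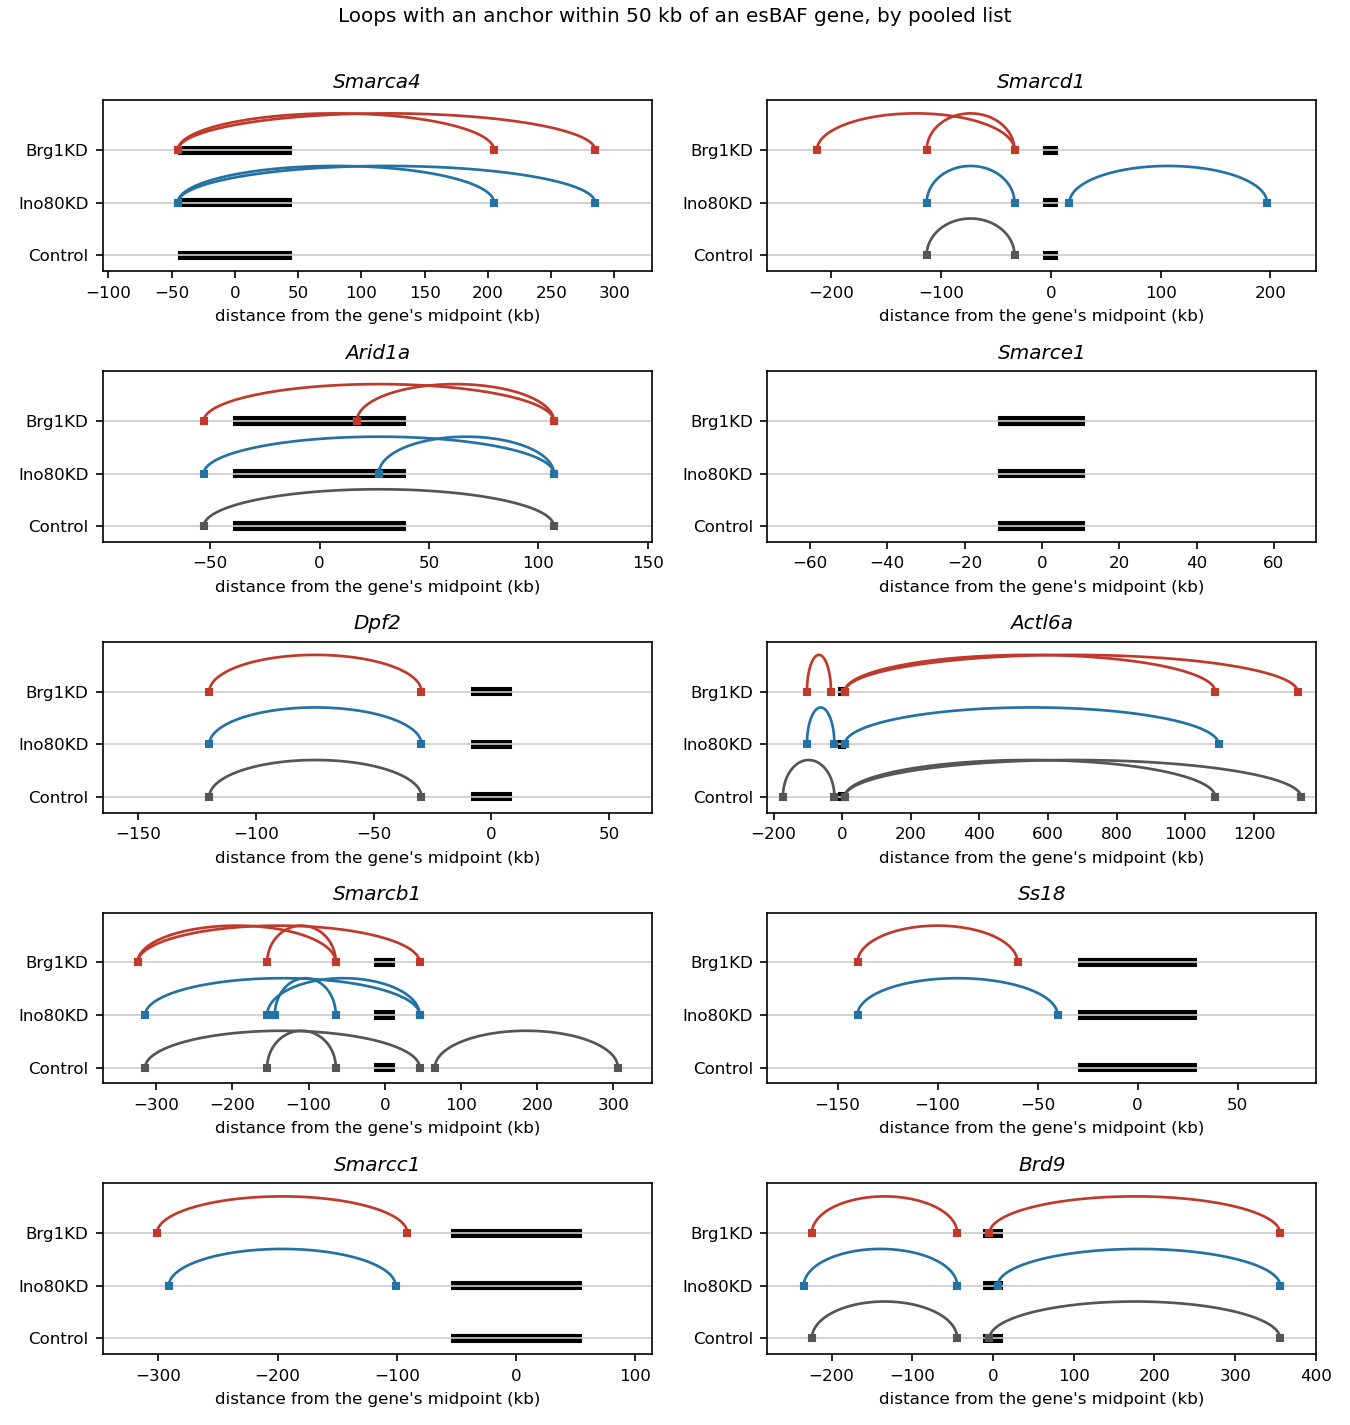
Loops with an anchor within 50 kb of each esBAF gene (black bar) in the Brg1KD, Ino80KD and Control lists, drawn as arcs between their anchors against the distance from the gene's midpoint in kb (x axis, a scale of its own for each gene). Smarca4, Smarcc1 and Ss18 have arcs in both knockdown lists and none in the Control list, and Smarce1 has none in any list.

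The other BAF family genes were read the same way for comparison. Of 19 genes, 18 had a full window, and 0 of 18 were called in Brg1KD against Control, in Ino80KD against Control or in Brg1KD against Ino80KD, with 0 at an unadjusted p under 0.05 (limma). With batch as a block the calls were again 0. The unadjusted counts were then 1, 1 and 0, against 2189, 1483 and 1948 of all 19711 windows. With a library left out some of these genes were called in each comparison. Such fits keep 1 library in a group, so their counts are not given. Smarca2, the ATPase that esBAF lacks, lay in B.1.2 at its midpoint in all 6 libraries, where Smarca4 was in A.1.1. Smarcc2, which esBAF also lacks, had A.1.1 in all 11 bins of its window in every library. Of the 18 genes, 17 lay in A at their midpoint in every library. Against Control, the 4 genes with the largest window shift in either knockdown, with a tie for the fourth place, had shifts of -0.29 classes for Brd7 and -0.23 for Smarcd2, 0.18 for Actb (Dpf1 tied with it in size at -0.18), each in Brg1KD against Control, and 0.38 for Ss18l1 in Ino80KD against Control. Each has a standard error of at least 0.194 classes and none passed the test. Around these 19 genes the Brg1KD list held 24 loops, the Ino80KD list 21 and the Control list 20, which is 1.26, 1.11 and 1.05 per gene. The Brg1KD list held more loops than the Control list for 6 of 19, against 14.1% of all genes, and fewer for 2, against 13.8%. The Ino80KD list held more for 3 of 19, against 10.4%, and fewer for 2, against 15.9%.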

How the data were processed

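Hi-C was measured in 6 libraries of E14 cells, 2 each of Brg1KD, Ino80KD and Control. The authors deposited, per library, segments on mm10 with a label and a score, which is the rank of the label in 8 equal steps, relative to that library, and, per group, a loop list of anchor positions. Per the submitters' processing notes, BWA, SAMtools, Juicer 2.0, HOMER and bedtools were used, named without roles. The sources used here do not give the caller of subcompartments and loops, its thresholds or the read depth. Each loop list is recorded with replicate 2 of its group, under a name that calls it merged.

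Scores were multiplied by 8 and cut into 50 kb bins. Window means and bins were fitted by lmFit and eBayes of limma (version 3.58.1, R 4.3.3) on all 6 libraries with no block. Adjustment was Benjamini-Hochberg over all windows or bins, with a threshold of 0.05. The fit was first run on simulated data with the same normal spread for every window or bin. That run does not cover windows and bins without any spread, on which the members' called bins rest. Python 3.11.15 and pandas 2.3.3 did the rest. Gene positions are those of RefSeq on GRCm38.p6. Batches come from the labels and pair the libraries; over windows, libraries of a batch deviated from their group means with r = 0.101 (Brg1KD and Control), 0.144 (Ino80KD and Control) and 0.119 (Brg1KD and Ino80KD), n = 19711 windows. Sex chromosomes carry no labels in these files.

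The members and lists were chosen with earlier results of these data known. Named genes are the members and the 4 other BAF family genes with the largest window shift. Genes under the far anchor of a loop and up to 4 genes in shifted bins are also named. Smarca2 and Smarcc2 were added after their values were seen. The alternatives tried were the block, leaving out a library, other windows, scales, variances and centring, and other loop distances and matches.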

Additional observations from a re-analysis of the deposited data

How the results depend on the processing

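With batch as a replicate block, the counts of called member windows stayed at 0 in all 3 comparisons, the called member bins at 7 in Brg1KD against Control and 0 in Ino80KD against Control, and the median shifts at 0, 0.02 and 0 classes, so the block changed no call of a member. It changed the counts over all windows, as given above. The count of called member windows was 1 with the gene body alone (Smarce1, -1.0 class) and 1 with the share of bins in A (Actl6a), each both in Brg1KD against Control and in Brg1KD against Ino80KD, and 0 under every other setting run. Leaving out 1 library at a time gave a median shift of 0 to 0.13 classes in Ino80KD against Control. The median shift was -0.066 to 0.12 in Brg1KD against Control and -0.066 to 0.045 in Brg1KD against Ino80KD, each with a change of sign. Called bins in Brg1KD against Control numbered 3 with a common variance, 0 of them among the 7 of the moderated fit, and 12 by the rule without a model. Centring each library on its mean gave a median shift of 0.10 classes in Ino80KD against Control, while the median over all genes also moved, to 0.08. Over all windows, Brg1KD against Control gave 9 calls with flanks of 500 kb and 109 with centring. Ino80KD against Control gave 9 and 36, and Brg1KD against Ino80KD gave 0 and 0.

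Window shifts that passed no test turned direction in some settings. In Brg1KD against Control, leaving out 1 library gave -0.54 to 0.077 classes for Arid1a, -0.19 to 0.12 for Smarcc1, -0.091 to 0.73 for Smarce1, -0.27 to 0.64 for Actl6a, -0.042 to 0.46 for Ss18 and -0.46 to 0.042 for Brd9. In Ino80KD against Control it gave -0.17 to 0.33 for Ss18 and -0.042 to 0.12 for Brd9, and in Brg1KD against Ino80KD -0.091 to 0.73 for Smarce1, -0.27 to 0.64 for Actl6a and -0.042 to 0.29 for Ss18. Flanks of 100 kb gave -0.20 for Actl6a and -0.083 for Ss18 in Brg1KD against Control and against Ino80KD, flanks of 500 kb gave -0.043 for Smarcc1 in Ino80KD against Control, and centring gave 0.046 for Smarcc1 in Brg1KD against Control. The cause was not tested.

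With anchors within 25 kb of a member there were 11 loops in the Brg1KD list, 11 in the Ino80KD list and 7 in the Control list, within 10 kb of either gene end 6, 9 and 5, and within 100 kb 18, 19 and 13, so the Control list held the fewest in each. Requiring identical anchors, 36.4% of Control loops near members were found again in the Ino80KD list, against 46.4% of all Control loops, and 63.6% in the Brg1KD list, against 45.7%. The read depth is unknown and 2 libraries a group limit every test.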

Other observations

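Phf10, a PHD-finger subunit of the PBAF form of the complex, was left out of the windows because its window is not labelled throughout, and its midpoint label, chosen here after its values were seen, was A.1.2 in both Brg1KD libraries, A.2.1 and A.1.2 in Ino80KD, and B.1.1 and A.2.1 in Control. No test was run on it.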
